A study of Rattus norvegicus with 6 samples.

Results

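Spi1, Runx1, Ikzf1, Pou2f2, Maf, Batf, Batf3, Nfatc2 and Cebpa encode transcription factors best known for their work in blood and immune cells, and their RNA levels were compared in the spinal cord of rats with bone cancer pain (BCP) and of sham-operated rats. The 9 genes were found by their names among the 30957 rows of the gene table, with 1 row for each. The animals were female Wistar rats. BCP rats had living Walker 256 cells, a rat mammary carcinoma line, placed in the marrow cavity of the left tibia, whereas the sham-operated rats had the same cells after killing by heat, so both groups shared the operation and the injected cell material. On day 14 the lumbar enlargement was taken, its meninges were removed, and the side of the injected leg was used for stranded RNA sequencing after removal of ribosomal RNA. There were 3 libraries per group. The labels number them as replicates without naming animals, so the p-values measure the spread between these libraries. The tissue was whole spinal cord, and in such bulk samples fewer cells of a type and less RNA per cell cannot be told apart. The injected cells were placed in the bone and not in the sequenced tissue.

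Each of these proteins binds a short DNA sequence and raises or lowers transcription nearby. PU.1, encoded by Spi1, is required for macrophages and microglia and is expressed throughout their life, while Ikaros (Ikzf1) and OCT2 (Pou2f2) are best known from lymphocytes. RUNX1 is needed for the first blood stem cells, C/EBPα (Cebpa) for granulocytes, BATF for differentiated T and B cells, BATF3 for a class of dendritic cells, c-MAF (Maf) for several T cell and macrophage states, and NFATc2 carries calcium signals to the nucleus through calcineurin in T cells as well as in neurons.

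The libraries held between 11779485 and 15004290 counts on genes, and 14908 genes passed the filter on low counts. A gene is called up-regulated or down-regulated here when its adjusted p from edgeR was under 0.05 and its change was over 2-fold. The median log2 fold change (log2FC) of all tested genes was -0.01. CPM (counts scaled by the TMM method to a common library total) served to compare libraries, and FPKM, which divides by gene length, served to compare genes. Sums of CPM over lists of cell type markers moved with the condition. The microglia list rose from between 306 and 407 CPM in sham libraries to between 1138 and 1417 in BCP libraries, with 9 of its 14 genes up-regulated and none of the 14 at 0. With the replicate number as a block 7 of them were up-regulated. The T cell list went from between 0.878 and 1.98 to between 27.4 and 40.6 CPM, and the 7 of its 9 genes that were tested passed the filter only through the BCP libraries. None of the 9 had at least 10 counts in every library. Cd3d, Cd5 and Cd8b of that list were at 0 in every sham library. The monocyte list, with 2 of 4 genes up-regulated, went from between 1.22 and 4.88 to between 84.2 and 116 CPM, while Ccr2, a defining monocyte receptor, had 1 count in each BCP library. The neutrophil list (2 of 7 genes up-regulated) went from between 8.72 and 10.22 to between 30.4 and 34.2 CPM, and 4 of its genes were up-regulated when any 1 sham library was left out. The red blood cell list (3 of 3) went from between 24.4 and 28.01 to between 61.7 and 77.8, and the proliferation list (5 of 6) from between 32.98 and 61.7 to between 141 and 225. The count of the proliferation list was 3 without sham library 1 or 2 or BCP library 2 or 3, and 3 with the replicate number as a block. The oligodendrocyte list went the other way, from between 38298 and 43528 to between 27409 and 30592 CPM, with 6 of 6 genes lower at an adjusted p under 0.05, all below 2-fold. The astrocyte list went from between 4039 and 4317 to between 5839 and 7598 CPM, with 1 of its 6 genes higher and 2 lower at an adjusted p under 0.05. The B cell list went from between 0.534 and 1.40 to between 1.86 and 3.56 CPM, and 1 of its 7 genes was tested and up-regulated. That count was 0 with DESeq2, and 0 without sham library 1 or 3 or BCP library 2 or 3. Ms4a1, Cd79a and Cd79b of this list, which define B cells, had at most 8 counts in any library. Of 5 tested border macrophage genes 0 were called by edgeR, 0 by DESeq2, and 0 had an unadjusted p under 0.05. The part of these cell types in the results below was not tested.

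The promoter windows of the factors that were higher in BCP rats are shown first, so that the regulatory sequence can be read beside the values. RefSeq promoter windows on GRCr8, another build than that of the deposited tables, were matched by symbol for 8 of the 9 factors, all but Spi1. Those of Pou2f2, Nfatc2, Runx1 and Maf lay inside the RefSeq gene. The other windows ended at the gene start, and their 250 bases upstream of it are given 5′ to 3′ along the gene's strand, which is the plus strand in each, with matches to the searched motifs in capitals. Their positions are chr1:96896334-96896583 for Cebpa, chr6:111084467-111084716 for Batf, chr13:105220532-105220781 for Batf3 and chr14:90468446-90468695 for Ikzf1.
Cebpa: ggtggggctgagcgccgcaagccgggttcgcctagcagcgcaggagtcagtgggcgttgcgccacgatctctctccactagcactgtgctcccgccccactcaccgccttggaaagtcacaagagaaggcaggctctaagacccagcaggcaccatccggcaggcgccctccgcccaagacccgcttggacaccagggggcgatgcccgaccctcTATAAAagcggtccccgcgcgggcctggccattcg
Batf: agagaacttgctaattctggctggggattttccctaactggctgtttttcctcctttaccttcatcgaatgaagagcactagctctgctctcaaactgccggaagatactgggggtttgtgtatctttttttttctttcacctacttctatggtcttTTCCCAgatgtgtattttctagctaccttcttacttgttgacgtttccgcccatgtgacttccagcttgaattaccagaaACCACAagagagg
Batf3: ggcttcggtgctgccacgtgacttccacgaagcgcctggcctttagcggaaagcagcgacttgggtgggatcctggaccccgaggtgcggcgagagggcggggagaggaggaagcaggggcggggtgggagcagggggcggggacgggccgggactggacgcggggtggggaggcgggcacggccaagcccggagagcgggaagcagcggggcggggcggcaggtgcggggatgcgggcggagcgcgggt
Ikzf1: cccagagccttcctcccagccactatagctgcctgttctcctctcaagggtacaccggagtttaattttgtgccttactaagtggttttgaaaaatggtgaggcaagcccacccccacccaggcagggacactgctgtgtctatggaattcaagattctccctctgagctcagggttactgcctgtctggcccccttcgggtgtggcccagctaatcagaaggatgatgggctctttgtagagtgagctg

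Both strands were searched for letters bound by the factors themselves, and for the TATA box, which is not a motif of these factors. TGTGGT, a RUNX motif, was found on the reverse strand of the Batf window, starting 13 bases before the gene start, and on the forward strand of the Pou2f2 window, so in 2 of 8 windows against 14.5% of all 33469 promoters. TGGGAA, an Ikaros motif, was found on the reverse strand of the Batf window, 93 bases before the start, in 1 of 8 windows against 22.1% of all promoters. TATAAA, the TATA box, was found in the Cebpa window, 35 bases before the start, against 12.9% of all promoters. GAGGAAGT for PU.1, ATGCAAAT for the octamer, TGANTCA for AP-1, TGGAAAA for NFAT and TTGCNNAA for C/EBP had no match in the 8 windows, and 2.04%, 1.56%, 6.34%, 6.06% and 9.22% of all promoters held them. The windows differed in base composition, with 75.2% G and C in Batf3, 67.2% in Cebpa, 53.6% in Ikzf1 and 43.2% in Batf.

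Of the 8 factors that passed the filter, 5 were up-regulated in BCP rats (Spi1, Ikzf1, Pou2f2, Cebpa and Batf) and 0 were down-regulated, where 6.35% of all tested genes were up-regulated and 0.107% down-regulated. At an adjusted p under 0.05 with no limit on the fold change, 6 factors were higher, against 15.8% of all genes. DESeq2 likewise called 5 factors up-regulated and 0 down-regulated, against 961 and 11 of all 14908 tested genes. At an unadjusted p under 0.05, 7 were higher and 0 lower by edgeR, but the share of all genes at that limit was not counted. The increase ranged from 2.82-fold for Cebpa to 5.62-fold for Ikzf1, and Batf, which passed the filter only through the BCP libraries, rose from 3 counts in the whole sham group. Runx1 passed the adjusted p but stayed below 2-fold, Maf and Nfatc2 did not pass it, and Batf3 was too low to be tested. In the plot of CPM by library, the groups of Spi1, Ikzf1, Pou2f2, Cebpa, Batf and Runx1 did not overlap, with BCP above. This was so for 21.7% of all tested genes, and 19.8% of genes had BCP below. The groups of Batf3 did not overlap either, but it was not tested and so lies outside these shares. It was at 0 in every sham library, so any count in each BCP library would set it apart.

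**Figure D1:**
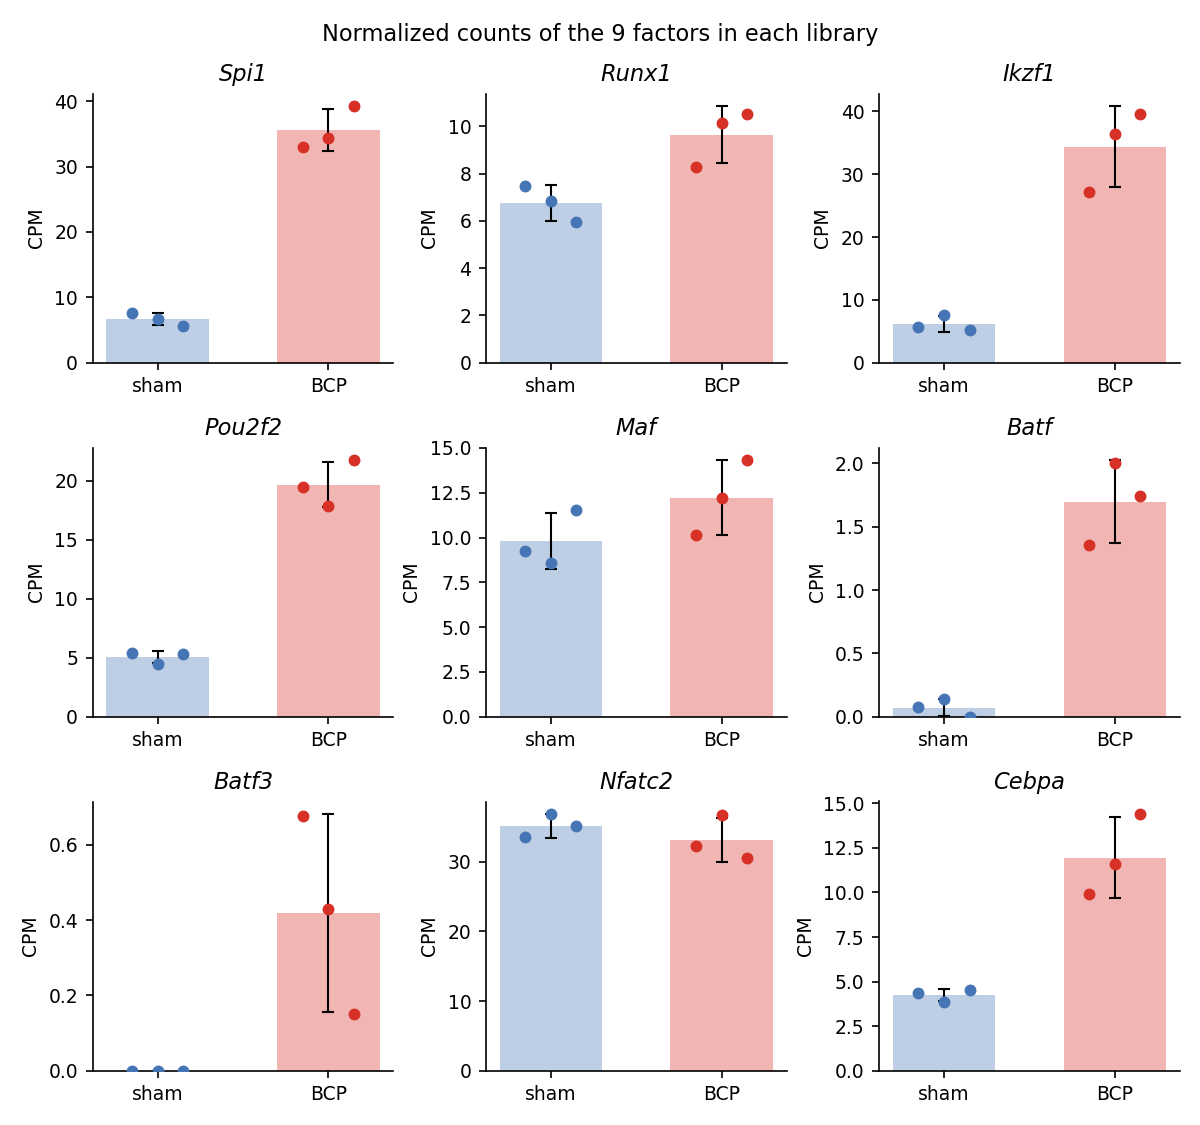
CPM (TMM-scaled, linear axis from 0) of each of the 9 factors in the 3 sham libraries (blue points) and the 3 BCP libraries (red points). Bars are group means and whiskers are SD. The points of Maf and Nfatc2 overlap between groups, and those of the other 7 factors do not.

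Spi1 (ENSRNOG00000012172, Rnor_6.0 chr3:79918969-79938301) had 100, 96 and 84 counts in sham libraries 1, 2 and 3 and 391, 482 and 518 counts in BCP libraries 1, 2 and 3. Every BCP library lay far above every sham library. PU.1 transcripts rose from 6.67 ± 0.976 to 35.6 ± 3.24 CPM (SD, n = 3 each), a log2FC of 2.42 (SE 0.12, adjusted p = 6.91e-12). Its log2FC ranged from 2.31 to 2.52 over the main and 13 other fits, all of them past the threshold. Ikzf1 (ENSRNOG00000004444, chr14:91782354-91867424) had 74, 108 and 77 counts in sham libraries and 322, 510 and 522 counts in BCP libraries. The lowest BCP library stood well below the other two but still above all sham libraries. Ikaros transcripts rose from 6.13 ± 1.24 to 34.4 ± 6.40 CPM, with a log2FC of 2.49 (SE 0.17, adjusted p = 3.08e-07). The 95% intervals of both changes, 2.17 to 2.67 for Spi1 and 2.12 to 2.86 for Ikzf1, overlapped.

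Pou2f2 (ENSRNOG00000055650, chr1:81964104-82004538), whose protein OCT2 binds the octamer of immunoglobulin promoters, had 71, 64 and 79 counts in sham libraries and 230, 250 and 287 counts in BCP libraries. The groups were widely separated and each varied little. Its level went from 5.07 ± 0.525 to 19.7 ± 1.94 CPM (log2FC 1.95, SE 0.14, adjusted p = 1.74e-09). Cebpa (ENSRNOG00000010918, chr1:91363492-91366164), the granulocyte and macrophage factor, had 57, 55 and 67 counts in sham libraries and 117, 162 and 190 counts in BCP libraries. The groups did not overlap, although the lowest BCP library was nearer to the sham libraries than for the factors above. Its level went from 4.24 ± 0.356 to 11.95 ± 2.27 CPM (log2FC 1.50, SE 0.17, adjusted p = 1.52e-06).

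Batf (ENSRNOG00000008588, chr6:109562587-109584545), which pairs with JUN proteins and IRF4 or IRF8, had 1, 2 and 0 counts in sham libraries and 16, 28 and 23 counts in BCP libraries. It was nearly absent from all sham libraries and present in all BCP libraries. The fitted log2FC was 4.42 (SE 0.60, adjusted p = 9.87e-06). With 3 counts in the whole sham group, the ratio of the group totals, scaled to depth, was 24.2, with an exact 95% counting interval of 7.92 to 120, which covers counting error only. Batf3 (ENSRNOG00000003716, chr13:109713489-109724863) had 0 counts in all 3 sham libraries and 8, 6 and 2 counts in BCP libraries. Against a floor of 3 counts over the sham group, with the BCP total taken as counted, it was at least 5.77-fold higher in the BCP group. It entered the test when no filter was applied, with an adjusted p of 0.00563, and it was then the sixth up-regulated factor.

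Runx1 (ENSRNOG00000001704, chr11:32769165-33003021) had 98, 98 and 88 counts in sham libraries and 98, 142 and 139 counts in BCP libraries. BCP library 1 had the same count as sham libraries 1 and 2, and only the scaling to its smaller depth set it above them, at 8.29 against 7.47 and 6.84 CPM. The log2FC was 0.52 (SE 0.16, 95% interval 0.19 to 0.85, adjusted p = 0.0182). The adjusted p was above 0.05 without sham library 3 (0.0858), without BCP library 2 (0.0726) and without BCP library 3 (0.0887), while the log2FC stayed at 0.43, 0.49 and 0.46.

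Maf (ENSRNOG00000012428, chr19:48194804-48196748) had 121, 123 and 171 counts in sham libraries and 120, 171 and 189 counts in BCP libraries. The groups overlapped, and the highest sham library was above the lowest BCP library. The log2FC of 0.32 (SE 0.15, 95% interval 0.00 to 0.64) did not pass the test at an adjusted p of 0.134, which became 0.0451 without BCP library 1. Nfatc2 (ENSRNOG00000012175, chr3:165245238-165360292) had 439, 527 and 519 counts in sham libraries and 382, 513 and 403 counts in BCP libraries. Its groups overlapped, at 35.1 ± 1.66 and 33.2 ± 3.16 CPM. The log2FC was -0.08 (SE 0.09, adjusted p = 0.535), and its 95% interval of -0.26 to 0.10 lay well inside a 2-fold change in either direction.

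The order of the factors by level differed between the groups, as given by the FPKM of the authors, a level per gene length. In sham libraries Nfatc2 was highest at 9.35 ± 0.476 FPKM, ahead of Maf at 4.96 ± 0.793 and Spi1 at 3.32 ± 0.477. Runx1 (2.09 ± 0.232), Ikzf1 (1.73 ± 0.356) and Cebpa (1.56 ± 0.129) followed, and neighbours in this trio overlapped. Pou2f2 was at 0.858 ± 0.0865 FPKM, Batf at 0.0707 ± 0.0689, and Batf3 was listed at 0. In BCP libraries Spi1 was highest at 18.2 ± 1.77 FPKM, above every library of the other factors. Ikzf1 (10.01 ± 1.93) and Nfatc2 (9.08 ± 0.878) came next and overlapped. Maf (6.37 ± 1.13), Cebpa (4.53 ± 0.891), Pou2f2 (3.42 ± 0.347) and Runx1 (3.07 ± 0.403) formed a run in which each neighbour overlapped the next. Batf (1.72 ± 0.340) and Batf3 (1.06 ± 0.658) were lowest and overlapped each other, with Batf below all Runx1 libraries. The factor at the head of the order thus changed from Nfatc2 to Spi1, while the FPKM of Nfatc2 itself hardly differed between groups.

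Most factors belong to small families with shared DNA-binding domains. Of 25 listed relatives 24 were found in the gene table, all but Nfatc1, and 19 were tested. Of these 8 were up-regulated and 0 down-regulated, where 6.35% and 0.107% of all tested genes were. Their median log2FC was 0.40, which was the same with Runx3 at its lower bound. With at least 10 counts in every library 5 were up-regulated, since that filter takes out Runx3, Ikzf3 and Batf2. The up-regulated relatives with the smallest p-values were Batf2, Cebpb, Ikzf3 and Runx3. Runx3, a factor of cytotoxic T and natural killer cells, had 0 counts in every sham library and 28, 43 and 49 counts in BCP libraries. With the BCP total taken as counted, Runx3 was at least 43.3-fold higher against the floor of 3 counts over the sham group. Ikzf3, which encodes the lymphocyte protein Aiolos, had 1, 10 and 4 counts in sham libraries and 64, 118 and 91 counts in BCP libraries (log2FC 4.26, SE 0.38, adjusted p = 1.05e-07). Both had few or no counts in sham libraries. Batf2, an interferon-induced relative of Batf, had 18, 13 and 6 counts in sham libraries and 83, 122 and 99 counts in BCP libraries (log2FC 3.13, SE 0.29, adjusted p = 6.36e-08). DESeq2 called 0 relatives down-regulated, and 0 were lower at an unadjusted p under 0.05 by edgeR. Cebpb, which is induced in inflammation, rose with a log2FC of 1.90 (SE 0.18, adjusted p = 9.12e-08), and its 95% interval overlapped that of Cebpa.

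Other up-regulated relatives, named with their values in view, were Cebpd (log2FC 1.81), Runx2 (1.53) and Maff (1.23). Cebpg, an inhibitory C/EBP, was higher at a log2FC of 0.40 (adjusted p = 0.000359), below 2-fold. In the NFAT family 0 of 4 tested genes with Nfatc2 included had an adjusted p under 0.05 by edgeR or DESeq2, and 1, Nfatc3, had an unadjusted p under 0.05. Their log2FC was 0.15 for Nfatc3, 0.58 for Nfatc4 and 0.02 for Nfat5. Ikzf2, Ikzf4 and Ikzf5 had log2FC of 0.13, -0.04 and 0.16, and Pou2f1, the widely expressed relative of Pou2f2, had -0.07, none of them past the test. Within the RUNX family the balance of members shifted. Runx2 minus Runx1 on the log2 CPM scale was -0.42, -1.06 and -0.22 in sham libraries and 0.55, 0.41 and 0.42 in BCP libraries. This difference was higher in each BCP library than in each sham library. Its sign does not show which gene was higher, since CPM is not divided by gene length. In mean FPKM Runx2 stayed below Runx1, at 0.806 against 2.09 in sham libraries and 2.39 against 3.07 in BCP libraries. The pair was chosen after its values were seen, so no test is given.

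**Figure D2:**
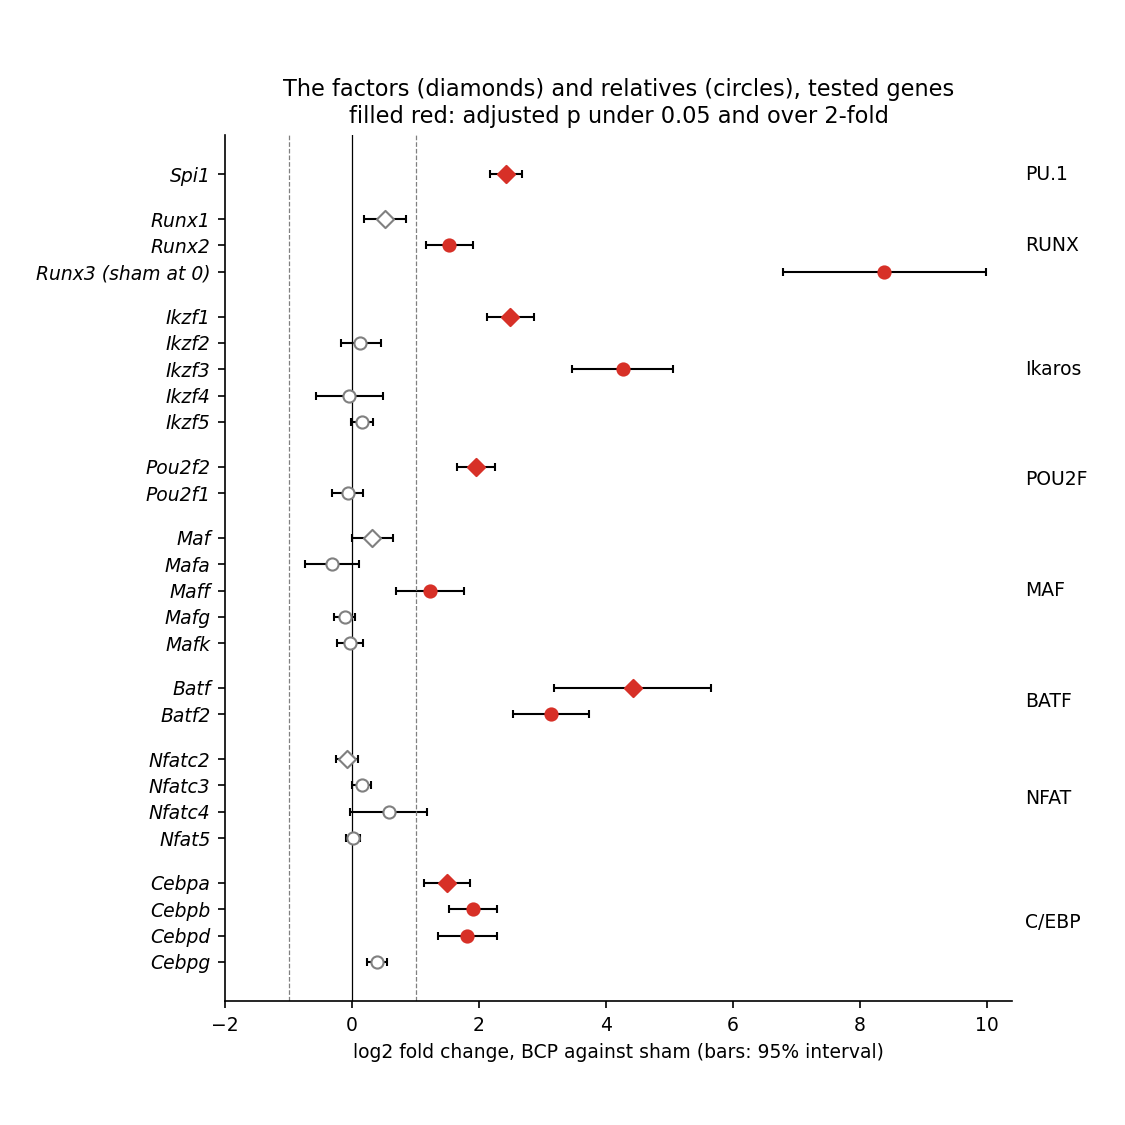
Fitted log2FC of BCP against sham (x axis) for the tested factors (diamonds) and tested relatives reported here (circles), grouped by family, with 95% intervals, where red fill marks up-regulation and dashed lines mark 2-fold. In the RUNX and MAF families the relatives Runx2, Runx3 and Maff are filled and the factors Runx1 and Maf are open, and the value of Runx3, which was at 0 in sham libraries, depends on the prior count.

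Of 16 tested genes for proteins that pair with these factors or modify them, 2 were up-regulated and 0 down-regulated, with a median log2FC of 0.08. Among all tested genes 6.35% were up-regulated and 0.107% down-regulated. At an adjusted p alone 6 of the 16 were higher, against 15.8% of all genes. At an unadjusted p under 0.05, 2 were lower by edgeR, and DESeq2 called 0 down-regulated. Irf8, which binds DNA together with PU.1 and with BATF, had 201, 195 and 178 counts in sham libraries and 1089, 1606 and 1500 counts in BCP libraries (log2FC 2.97, SE 0.10, adjusted p = 3.62e-11). Its groups were far apart. Junb, a dimer partner of BATF, rose from 8.03 to 18.3 CPM in the mean (log2FC 1.19, SE 0.13, adjusted p = 5.00e-07). Cbfb, the common partner of the RUNX proteins, was higher at a log2FC of 0.63 (SE 0.09, adjusted p = 2.63e-05), close to that of Runx1 and likewise below 2-fold. Irf4 (0.77, adjusted p = 0.0397) and Jun (0.18, adjusted p = 0.0391) were also higher below 2-fold. Jund had a log2FC of -0.19 (adjusted p = 0.115). Pou2af1, the B cell coactivator of OCT2, had 3 counts in all sham libraries together and 6 in all BCP libraries together, too few for the test. The calcineurin subunits Ppp3ca, Ppp3cb, Ppp3cc and Ppp3r1, which activate NFATc2, had log2FC between -0.12 and 0.06, none past the test.

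Among other transcription factors of blood lineages 27 of 32 were tested, 6 were up-regulated and 0 down-regulated, with a median log2FC of 0.50. For all tested genes these shares were 6.35% and 0.107%. With at least 10 counts in every library 4 were up-regulated, since that filter takes out Tbx21 and Eomes. Without any single library the number was between 6 and 8. At an adjusted p alone 14 were higher and 1, Bcl11a, was lower, where 15.8% of all genes were higher and 12.1% lower. By edgeR 2 were lower at an unadjusted p under 0.05, and 0 were down-regulated by DESeq2. Among the up-regulated genes, those with the smallest p-values were Elf4 (log2FC 2.27), Prdm1 (2.78), Tbx21 and Fli1 (1.40). Tbx21, the T-bet factor of cytotoxic and helper T cells, had 1 count in the sham group and 114 in the BCP group, a ratio of 123 with an exact 95% counting interval of 21.7 to 4915. Eomes, a relative of T-bet named after its values were seen, had 1 and 62 counts, a ratio of 67.1 (11.6 to 2692). Pax5 and Ebf1, the B cell factors, were not up-regulated. Pax5 had at most 7 counts in a library, and Ebf1, which other cells of the tissue express as well, had a log2FC of -0.12 (adjusted p = 0.213).

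Against all genes that the deposited annotation marks as sequence-specific transcription factors (a set chosen with the tables in view) the factors were ranked by their change. Of 912 such rows 670 were tested, and 42 of them (6.27%) were up-regulated and 1 (0.149%) was down-regulated. Ranked by log2FC among these 42, Batf came 5th, Ikzf1 12th, Spi1 13th, Pou2f2 18th and Cebpa 25th. Runx3, Tfec, Tbx21 and Eomes ranked above Batf, and Runx3, Tbx21 and Eomes had at most 1 count in the sham group. Batf itself had 3 counts there, and its log2FC ranged from 3.86 to 5.25 over the fits. Its rank beside Ikzf3, at a log2FC of 4.26, is therefore not settled.

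Genes known as targets of these factors were described from lists, which overlap with the marker lists in Csf1r and Itgam (microglia) and in Csf3r (neutrophils). All 18 tested PU.1 targets were up-regulated, with a median log2FC of 2.64. Ncf4, Msr1 and Il1b of them passed the filter only through the BCP libraries, and 15 were up-regulated with at least 10 counts in every library. With the replicate number as a block 16 were up-regulated. The 4 with the smallest p-values were Cd68, a lysosomal protein of phagocytes (log2FC 3.66, adjusted p = 1.12e-12), Btk, a kinase of B and myeloid cells (3.12, 9.46e-10), the integrin subunit Itgb2 (2.25, 2.36e-09) and the G-CSF receptor Csf3r (1.66, 3.42e-09). In comparison with Spi1 itself at 2.42, individual targets ranged from 1.44 for Csf1r to 4.91 for Msr1. Of the 11 rows of NFAT targets 6 were tested and 4 were up-regulated, but these 4 passed the filter through the BCP libraries, and with at least 10 counts in every library 0 were up-regulated. Ifng had 0 counts in all sham libraries and 18, 25 and 18 counts in BCP libraries. With the BCP total taken as counted, Ifng was at least 22-fold higher against the floor used above. Tnf (3.53, on the 1 of its 2 rows that was tested), Il2ra (1.85) and Egr2 (1.35) also rose, whereas Rcan1, a direct calcineurin feedback gene, had a log2FC of 0.07 (adjusted p = 0.545), and Il2 and Il4 had no count in any library.

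A list of genes of the dendritic cells that depend on BATF3, which need not be its targets, had 2 up-regulated of 6 tested. These were Wdfy4 (log2FC 2.58) and Tlr3 (1.49), and the median was 0.20. Xcr1, the defining chemokine receptor of these cells, had 0 counts in sham libraries and 5, 7 and 5 counts in BCP libraries, and Clec9a had at most 10 counts in a library. Flt3 had a log2FC of -0.11 (adjusted p = 0.344). The summed CPM of the dendritic cell marker list was 53.1 to 58.2 in sham libraries and 55.0 to 57.9 in BCP libraries, so the ranges overlapped, with Siglech at 0 throughout. Of the 8 genes on that list 4 were tested and 1 was up-regulated, and 3 of the 8 were at 0 in every sham library. The number up-regulated was 0 without sham library 1 or 2 or BCP library 2 or 3. Of the granulocyte targets of C/EBPα only Csf3r passed the filter, and Elane and Mpo stayed at 8 counts or fewer in every library. Of the 5 BATF targets 2 were tested, Ctla4 (log2FC 3.67) and Prdm1 (2.78). Both were up-regulated, but Ctla4 passed the filter only through the BCP libraries, and 1 was left with at least 10 counts in every library. Likewise none of the MAF targets Il10, Il4 and Il21 passed the filter.

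**Figure D3:**
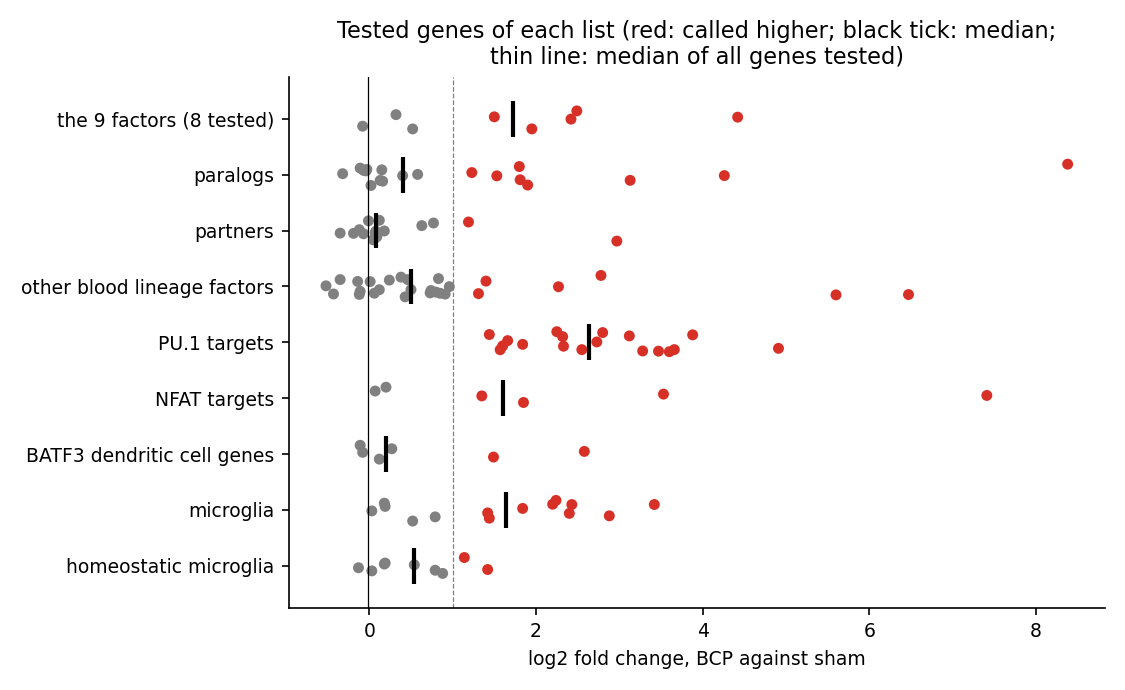
Fitted log2FC of BCP against sham for each tested gene of the factors, their relatives, partners and other blood lineage factors. Further rows show the PU.1 and NFAT target lists, the BATF3 dendritic cell list and the microglia lists. Red points are up-regulated genes and black ticks are list medians, which lie at 1.73 for the factors, 2.64 for PU.1 targets and 0.08 for partners. The points above 7 are Runx3 and Ifng, whose sham libraries were at 0, so their positions depend on the prior count.

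Because microglia are a main source of several of these factors in spinal cord, each factor was also set against the microglia list within each library, as its log2 CPM minus the mean log2 CPM of the 14 microglia genes. That mean itself rose by 1.56, from 4.15 to 5.71. Spi1 minus the list was -1.35, -1.43 and -1.39 in sham libraries and -0.60, -0.48 and -0.59 in BCP libraries, a difference of 0.84. Ikzf1 minus the list was -1.78, -1.26 and -1.51 against -0.88, -0.40 and -0.58, a difference of 0.90. Both stood higher relative to the list in each BCP library than in each sham library. So did Pou2f2 by 0.36 and Batf by 1.55, and 4 of 8 factors lay above in this way where 2.58% of all genes did. This count restates the changes given above less the rise of the list, so it is not separate evidence. Batf passed the filter only through the BCP libraries. The value of Batf depended on the prior count and was 2.68 at a prior count of 0.5.

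Cebpa moved with the list, from -2.14, -2.21 and -1.71 to -2.33, -2.04 and -2.02, and its groups overlapped (difference -0.11, two-sided exact permutation p = 0.7). Runx1 (-1.06), Maf (-1.25) and Nfatc2 (-1.65) lay lower relative to the list in each BCP library than in each sham library, as did 92.9% of all genes, so this is the background. The other 7 factors had the smallest p that 3 against 3 libraries allow in the two-sided exact permutation test, 0.1 (0.114 after Benjamini-Hochberg adjustment over 8 tests), and the design therefore cannot reach 0.05. The homeostatic microglia list rose less, from between 147 and 164 to between 222 and 254 CPM, with 2 of 9 genes up-regulated. Relative to it Batf was higher by 2.56, Ikzf1 by 1.91, Spi1 by 1.85, Pou2f2 by 1.38 and Cebpa by 0.90. Only Nfatc2 remained below, by -0.63, with Runx1 at -0.04 and Maf at -0.23. Relative to the median of the 14 genes, 3 factors remained above, with Batf at 1.35, Ikzf1 at 0.71 and Spi1 at 0.64, and Pou2f2 was at 0.17. The size of these differences thus depended on the reference chosen.

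**Figure D4:**
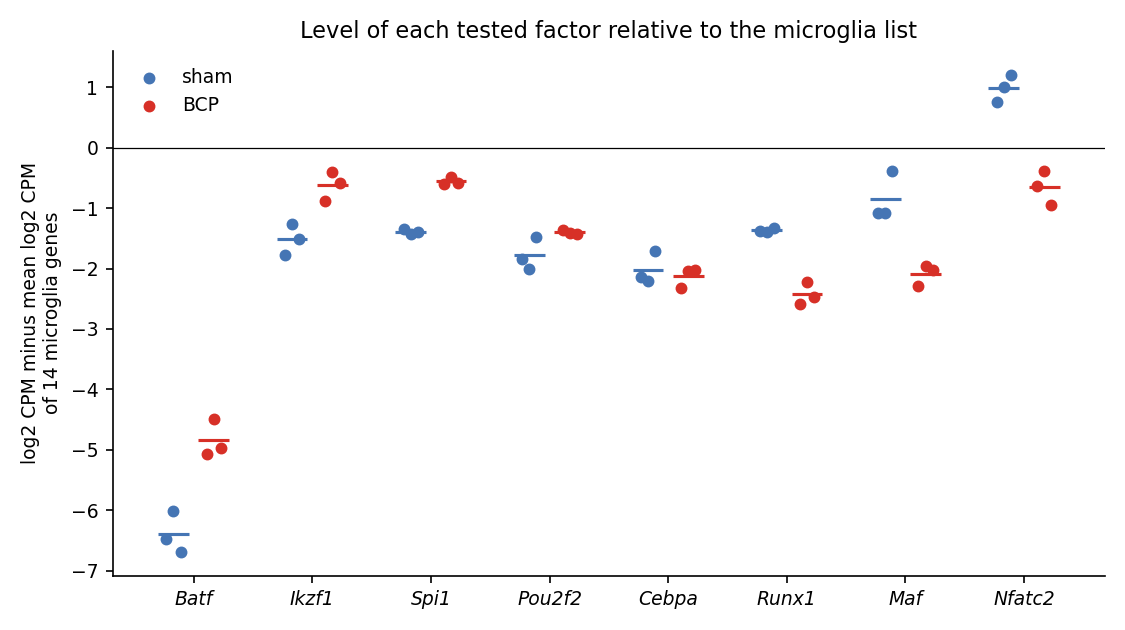
Log2 CPM of each tested factor minus the mean log2 CPM of the 14 microglia genes in the 3 sham (blue) and 3 BCP (red) libraries, with lines at group means. Batf, Ikzf1, Spi1 and Pou2f2 lie higher in BCP libraries, Cebpa overlaps, and Runx1, Maf and Nfatc2 lie lower.

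The genes outside the 9 factors whose profile over the 6 libraries was closest to each up-regulated factor were found by the root mean square difference of centred log2 CPM. For Spi1 they were the complement gene C1qb, which is in the microglia list (0.064), and the annexin Anxa3 (0.084). For Ikzf1 they were the lysosomal protease Ctsz (0.101) and the signalling adaptor Dapp1 (0.103), for Pou2f2 the complement receptor C5ar2 (0.095) and the innate receptor Tlr2 (0.098), and for Cebpa the transcription factor Stat6 (0.062) and the integrin adaptor Apbb1ip (0.082). Batf was closest to Sytl3 (0.092) and to Rhoh, a GTPase of blood cells (0.116). Since the sham log2 CPM of Batf depends on the prior count, so does this likeness, and the fitted log2FC was 4.26 for Sytl3 and 3.11 for Rhoh against 4.42 for Batf. Within a distance of 0.2 there were 75 genes for Spi1, 77 for Cebpa, 39 for Pou2f2, 32 for Ikzf1 and 7 for Batf. All these points share the same 6 libraries and are given as a description.

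Long noncoding RNAs (lncRNAs) near the factors were taken from the lncRNA table. Within 10 kb of 6 of the factors lay 13 lncRNAs, 11 of them overlapping the gene, and 7 were tested. Of these 4 were up-regulated and 0 down-regulated, where 1.14% of 12157 tested lncRNAs were up-regulated and 0.074% down-regulated. At Pou2f2, NONRATT002398.2 (chr1:81965600-81967262) had 24, 29 and 32 counts in sham libraries and 92, 100 and 96 counts in BCP libraries (log2FC 1.91, SE 0.16, adjusted p = 0.00253). Its groups were far apart and its change was close to that of Pou2f2, which it overlaps. NONRATT002396.2 (log2FC 1.62, adjusted p = 0.0374) also lies in Pou2f2, and NONRATT002395.2 (1.55, adjusted p = 0.0132) lies 402 bases from it. In Cebpa, NONRATT000603.2 (chr1:91365198-91366164) had 34, 30 and 35 counts in sham libraries and 58, 97 and 103 counts in BCP libraries (log2FC 1.51, adjusted p = 0.016), against 1.50 for Cebpa. The neighbouring NONRATT000602.2, which also overlaps Cebpa and was named after its values were seen, had 14 counts in sham library 2, 64 in BCP library 2 and 0 in the other 4 libraries.

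The tested lncRNAs that did not pass were NONRATT006889.2, 2491 bases from Runx1 (log2FC 1.06, adjusted p = 0.123), NONRATT006890.2 in Runx1 (log2FC -0.01, the only value below 0 of the 7) and NONRATT014745.2 at Maf (0.66, adjusted p = 0.294). The use of strand in counting is not given in the sources used here, so the reads of a gene and of a lncRNA that overlaps it cannot be told apart. The number of up-regulated lncRNAs near the factors fell from 4 to 1 without sham library 2 or BCP library 3, and to 2 without sham library 3 or BCP library 2.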

How the data were processed

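RNA sequencing of 3 sham and 3 BCP libraries was analysed, with groups and replicate numbers taken from the labels. Per the submitters' processing notes, HISAT2 2.0.4 aligned the reads to Rnor_6.0 and StringTie 1.3.0 followed. The authors deposited raw counts per gene and per lncRNA, with FPKM in further columns that they calculated. The counting program is not given in the sources used here. The test was that of edgeR 4.0.16, run in R 4.3.3 (TMM, filter by expression, robust quasi-likelihood fit and test on the group alone, Benjamini-Hochberg adjustment over all features tested), separately for genes and lncRNAs. Members and lists were chosen with earlier results of these data known, and the lists partly follow textbook roles. All 9 factors were named, and from each list up to 4 called genes with the smallest p-values and the direct partners, 2 nearest profiles per called factor, and tested lncRNAs within 10 kb, beyond which names given with their values in view are said to be so or are marker, family or list genes used as examples. Some genes of these lists are counted but not reported here by name. The scripts were tested on simulated data. The smallest library had 11779485 counts, and pairs of libraries of a group differed by more than sampling noise (chi-square per degree of freedom 3.48 to 6.04). Counts may include PCR duplicates, so counting intervals cover counting error only. The floors cover that of the sham group only, with the BCP total taken as counted. Log2 CPM used a prior count of 2. Promoter windows came from RefSeq on GRCr8. Alternatives were DESeq2 1.42.0, other normalizations, filters and thresholds, the replicate number as a block, and each library left out. Plots used Python 3.11.15 and matplotlib 3.10.9.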

Additional observations from a re-analysis of the deposited data

How the results depend on the processing

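The number of up-regulated factors was 5 under the other normalizations, with DESeq2, with a test against a fold change of 2 and without each library in turn. It was 6 with no filter on low counts, which let Batf3 in, 6 with no limit on the fold change, which let Runx1 in, and 4 with at least 10 counts in every library, which leaves Batf out. None was down-regulated in any of these fits. With that filter 5 relatives were up-regulated in place of 8, since the filter removes genes that were low in sham libraries. Relative to the homeostatic microglia list 1 factor lay below in place of 3. The number of up-regulated lncRNAs near the factors was 1 at the lowest and 3 at the highest with any single library removed, and the cause was not tested. Same-numbered libraries did not deviate together from their group means (correlations -0.105, 0.0439 and -0.0353). With 3 libraries per group these correlations cannot decide whether the numbers pair the samples. With the replicate number as a block 5 factors were up-regulated, Runx1 had an adjusted p of 0.0353, and 1 lncRNA near the factors was up-regulated. Over all genes the number up-regulated was 946, against 649 with at least 10 counts in every library and 548 with the test against 2-fold, and the number down-regulated was 16, against 6 and 0. Without BCP library 1 it was 33, and with no filter 37. Other normalizations moved the median log2FC of all genes to between -0.050 and 0.026. At this depth a change in Batf3 could be bounded but not measured.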
